A study of Mus musculus with 12 samples.

Results

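The 6 leukocyte adhesion molecules described here were taken by gene name from the deposited table of cultured mouse cardiomyocytes. They are the selectins Selp and Sele, the immunoglobulin-family receptors Icam1 and Vcam1, the hyaluronan receptor Cd44 and the junction molecule Pecam1. They are 6 of the 22915 genes listed, and all 6 were among the 13184 genes tested, the filter being a normalized count of 10 or more in 3 or more libraries. Primary cardiomyocytes of adult mice, 12 weeks of age, were kept for 24 h in normoxia with a recombinant cytokine, and total RNA was sequenced. The sample labels give 25 ng/mL, a dose that differs slightly from the one in the study's methods. The study's text names male C57/Bl6 mice for its infarction experiments and gives no sex or strain for these cultures. The control group received PBS, the solvent of the proteins. The other groups received mLIF (leukemia inhibitory factor of the mouse), mOSM (mouse oncostatin M) or hlOSM (its human-like form), with 3 libraries each and 12 in all. In mouse cells mLIF signals through the LIF receptor and mOSM through the OSM receptor. In hlOSM the AB loop of mOSM is replaced by the human one, and the protein signals through both receptors. The labels name no genetic change in any group, and every group was the same kind of primary culture, which can hold other cells of the heart. The study's methods speak of biological replicates only in general, and the sources used here do not say whether the 3 libraries of a group came from separate mice or preparations. The p-values therefore measure the spread between these libraries.

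Leukocytes leave the blood in steps. Selectins on the vessel wall catch flowing cells through sugar-bearing ligands, ICAM-1 and VCAM-1 then hold them by binding leukocyte integrins, and PECAM-1 at endothelial junctions takes part in their passage through the wall. P-selectin (Selp) is stored in endothelial cells and platelets, and E-selectin (Sele) is made by endothelium after exposure to inflammatory cytokines. CD44 is found on many cell types, binds hyaluronan and can carry ligands of E-selectin. In the heart the selectins and PECAM-1 are known mainly from endothelium rather than from cardiomyocytes, so that the levels of endothelial markers are given beside the results. RNA was measured, and the amount of protein at the cell surface was not.

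Selp and Sele are neighbors on mouse chromosome 1, and their transcripts followed the most similar course of any pair among the 6. The 250 bases before the start of each gene are therefore shown for both, and for Icam1, which moved little. The sequences were read in the direction of the gene from RefSeq (GRCm38.p6), where 4 of the 6 genes were matched, namely Selp, Sele, Icam1 and Cd44. They cover chr1:164115014-164115263 (+) for Selp, chr1:164047984-164048233 (+) for Sele and chr9:21015690-21015939 (+) for Icam1, whose RefSeq start lies slightly before the start in the table. Capitals mark the letters of 3 motifs, searched on both strands and picked with these sequences in view.
Selp: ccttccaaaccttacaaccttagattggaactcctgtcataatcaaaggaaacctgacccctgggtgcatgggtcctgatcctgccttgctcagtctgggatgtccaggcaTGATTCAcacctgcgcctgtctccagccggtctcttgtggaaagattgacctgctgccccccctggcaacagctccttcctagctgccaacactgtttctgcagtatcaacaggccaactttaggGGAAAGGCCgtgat
Sele: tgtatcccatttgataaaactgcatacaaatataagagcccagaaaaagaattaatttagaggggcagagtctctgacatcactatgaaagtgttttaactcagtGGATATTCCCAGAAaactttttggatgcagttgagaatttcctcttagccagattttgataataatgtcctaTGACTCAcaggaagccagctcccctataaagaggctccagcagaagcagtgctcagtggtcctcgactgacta
Icam1: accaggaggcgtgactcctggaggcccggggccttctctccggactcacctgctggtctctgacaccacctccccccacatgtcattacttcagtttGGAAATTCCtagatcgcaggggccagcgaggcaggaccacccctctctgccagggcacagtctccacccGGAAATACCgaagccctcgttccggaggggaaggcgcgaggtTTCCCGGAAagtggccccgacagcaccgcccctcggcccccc

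The motif of STAT factors was searched as TTCNNNGAA, that of NF-kB as GGNNNTTCC and that of AP-1 as TGANTCA. Of 32851 mouse promoter windows of the same length, 7.02% held the first, 15.7% the second and 6.75% the third, so that a match is common. The Sele window held TTCCCAGAA at 140 to 132 bases before the start, which overlaps an NF-kB match, GGATATTCC, at 145 to 137 bases. It also held TGACTCA at 73 to 67 bases. In the Selp window the AP-1 letters TGATTCA stood at 139 to 133 bases and GGAAAGGCC, an NF-kB match on the other strand, at 14 to 6 bases. The Icam1 window held TTCCCGGAA at 42 to 34 bases and 2 NF-kB matches, GGAAATTCC, which matches on both strands, at 153 to 145 bases and GGAAATACC, on the other strand, at 84 to 76 bases. The Cd44 window held none of these letters. A match is a description of letters, and binding was not measured.

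P-selectin RNA rose with each of the 3 cytokines. Selp (ENSMUSG00000026580, chr1:164115264-164150026 on the plus strand of mm10) had normalized counts of 37, 35 and 34 in the PBS libraries, 93, 90 and 77 with mLIF, then 182, 196 and 252 with mOSM, and 191, 196 and 203 with hlOSM. All 9 cytokine libraries lay above all PBS libraries, and all 6 libraries with mOSM or hlOSM lay above those with mLIF. The mean was 35.3 ± 1.53 (SD, n = 3) in PBS and 86.7 ± 8.50 (SD, n = 3) with mLIF, a log2 fold change of 1.27 (SE 0.11, limma adjusted p = 3.59e-07). It was 210.0 ± 37.0 (SD, n = 3) with mOSM, which is 2.52 on the log2 scale (SE 0.11, limma adjusted p = 1.65e-13). With hlOSM it was 197 ± 6.03 (SD, n = 3), a log2 fold change of 2.44 (SE 0.11, limma adjusted p = 2.80e-13). The difference of hlOSM from mOSM was -0.08 (95% interval -0.31 to 0.15, limma adjusted p = 0.926). Both forms of OSM exceeded mLIF in direct comparison, mOSM by 1.26 (limma adjusted p = 2.75e-08) and hlOSM by 1.18 (limma adjusted p = 6.17e-08). These changes are given on the scale of log2(normalized count + 1), which understates the change of low genes slightly. Noncoding genes of the opposite strand overlap 14.1% of the exonic bases of Selp, and the sources used here do not state whether strand was used in counting.

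E-selectin RNA was at a like level in PBS and rose with the same 3 cytokines. The normalized counts of Sele (ENSMUSG00000026582, chr1:164048234-164057677, plus strand) were 36, 34 and 25 in PBS, 47, 60 and 54 with mLIF, then 162, 154 and 194 with mOSM, and 167, 147 and 196 with hlOSM. The mLIF libraries lay above PBS without overlap, and the libraries of mOSM and hlOSM covered nearly the same range far above both. Against a mean of 31.7 ± 5.86 (SD, n = 3) in PBS, mLIF gave 53.7 ± 6.51 (SD, n = 3), a log2 fold change of 0.75 (SE 0.14, limma adjusted p = 0.00149). Means of 170.0 ± 21.2 (SD, n = 3) with mOSM and 170.0 ± 24.6 (SD, n = 3) with hlOSM gave log2 fold changes of 2.40 (limma adjusted p = 1.42e-11) and 2.39 (limma adjusted p = 1.00e-11). The difference of hlOSM from mOSM on the log2 scale was -0.0028 (95% interval -0.29 to 0.28, limma adjusted p = 0.999). Sele was 1.65 higher with mOSM than with mLIF (limma adjusted p = 1.75e-08) and 1.64 higher with hlOSM than with mLIF (limma adjusted p = 1.45e-08). With mLIF, Selp reached 2.45 times its PBS mean and Sele 1.69 times, and with mOSM the multiples were 5.94 and 5.37.

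**Figure D1:**
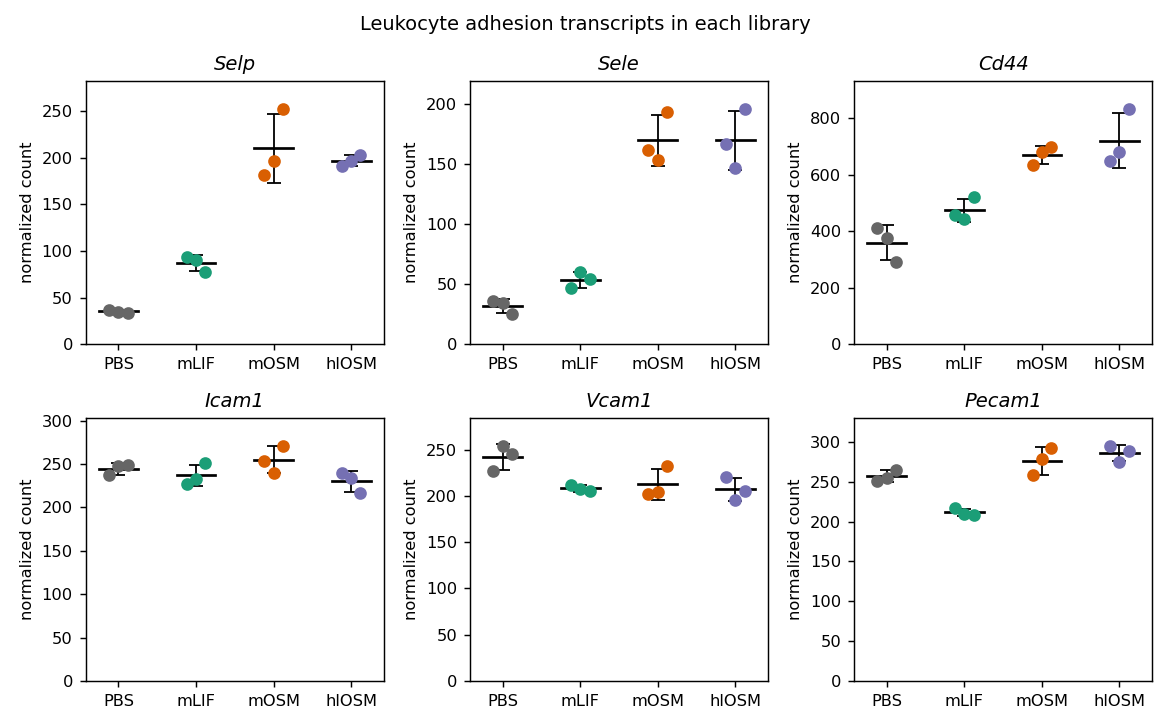
Normalized count of each of the 6 adhesion transcripts (y axis, linear, from 0) in the 3 libraries of each condition (x axis). Points are libraries, bars the mean and whiskers 1 SD (n = 3). Selp and Sele were lowest in PBS, between 25 and 37, and highest with mOSM and hlOSM, between 147 and 252, while the Icam1 libraries of all conditions lay between 217 and 271.

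ICAM-1 RNA did not pass the test with any cytokine. Icam1 (ENSMUSG00000037405, chr9:21015985-21028817, plus strand), the ligand of the leukocyte integrins LFA-1 and Mac-1, had normalized counts of 237, 248 and 249 in PBS, 227, 233 and 251 with mLIF, then 254, 240 and 271 with mOSM, and 240, 234 and 217 with hlOSM. The ranges of all groups overlapped that of PBS. Its log2 fold changes against PBS were -0.05 with mLIF (95% interval -0.19 to 0.10, limma adjusted p = 0.719), 0.06 with mOSM (95% interval -0.09 to 0.20, limma adjusted p = 0.569) and -0.09 with hlOSM (95% interval -0.23 to 0.06, limma adjusted p = 0.341). The intervals allow a change of at most 1.15-fold upward and 0.851-fold downward. A noncoding gene on the opposite strand overlaps 11.7% of the exonic bases of Icam1.

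VCAM-1 RNA was lower than in PBS by about the same amount with each cytokine, and only the value with hlOSM passed the test. Vcam1 (ENSMUSG00000027962, chr3:116109949-116129688, minus strand) encodes the receptor of the leukocyte integrin VLA-4. Its normalized counts were 227, 254 and 245 in PBS, 212, 207 and 205 with mLIF, then 202, 204 and 232 with mOSM, and 220, 196 and 205 with hlOSM. The mLIF and hlOSM libraries lay below all PBS libraries, and 1 mOSM library, at 232, overlapped them. The mean of 242 ± 13.7 (SD, n = 3) in PBS compared with 207 ± 12.1 (SD, n = 3) with hlOSM, a log2 fold change of -0.22 (SE 0.07, limma adjusted p = 0.0204). This call was lost without PBS replicate 2 (-0.19, limma adjusted p = 0.0899), without PBS replicate 3 (-0.21, limma adjusted p = 0.0549) and without hlOSM replicate 2 (-0.19, limma adjusted p = 0.0902). The log2 fold changes with mLIF and mOSM were -0.22 (limma adjusted p = 0.0658) and -0.19 (limma adjusted p = 0.0587). The mLIF value passed the test without mOSM replicate 3 (limma adjusted p = 0.0401). The mOSM value passed it without that library (limma adjusted p = 0.0146) or without PBS replicate 1 (limma adjusted p = 0.0414).

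CD44 RNA rose with each cytokine, less with mLIF and more with both forms of OSM. Cd44 (ENSMUSG00000005087, chr2:102811141-102901665, minus strand) had normalized counts of 411, 377 and 290 in PBS, 459, 442 and 520 with mLIF, then 636, 679 and 697 with mOSM, and 649, 682 and 832 with hlOSM. The libraries of PBS, of mLIF and of the OSM forms did not overlap, and those of mOSM and hlOSM overlapped each other. The mean was 359 ± 62.4 (SD, n = 3) in PBS, 671 ± 31.3 (SD, n = 3) with mOSM and 721 ± 97.5 (SD, n = 3) with hlOSM. The log2 fold changes were 0.91 with mOSM (SE 0.10, limma adjusted p = 3.00e-07) and 1.01 with hlOSM (SE 0.10, limma adjusted p = 5.13e-08). With mLIF the mean was 474 ± 41.0 (SD, n = 3) and the log2 fold change 0.41 (SE 0.10, limma adjusted p = 0.0118). The mLIF call was lost without PBS replicate 3, the lowest library (0.26, limma adjusted p = 0.0866), and without mLIF replicate 3, the highest of its group (0.34, limma adjusted p = 0.0871). Cd44 was higher than with mLIF by 0.50 with mOSM (limma adjusted p = 0.0013) and by 0.60 with hlOSM (limma adjusted p = 0.000159). The difference of hlOSM from mOSM was 0.10 (95% interval -0.11 to 0.30, limma adjusted p = 0.895). The table sums all transcripts of a gene, so the splice forms of CD44 were not distinguished.

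PECAM-1 RNA fell with mLIF and did not pass the test against PBS with either form of OSM. Pecam1 (ENSMUSG00000020717, chr11:106654217-106750628, minus strand) had normalized counts of 251, 255 and 265 in PBS, 217, 210 and 208 with mLIF, then 258, 278 and 292 with mOSM, and 295, 275 and 289 with hlOSM. All mLIF libraries lay below all others, the hlOSM libraries lay above PBS without overlap, and the mOSM libraries overlapped PBS. The log2 fold change with mLIF was -0.28 (SE 0.07, limma adjusted p = 0.00916), from 257 ± 7.21 (SD, n = 3) in PBS to 212 ± 4.73 (SD, n = 3). Without mLIF replicate 3 it was -0.27, with a limma adjusted p of 0.0517. The values with mOSM and hlOSM were 0.10 (limma adjusted p = 0.26) and 0.16 (limma adjusted p = 0.0661), and the latter passed without mOSM replicate 3 (limma adjusted p = 0.047). In direct comparison Pecam1 was higher than with mLIF by 0.38 with mOSM (limma adjusted p = 0.000301) and by 0.43 with hlOSM (limma adjusted p = 5.00e-05).

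Over the 6 genes, 3 rose with mLIF (Selp, Sele and Cd44) and 1 fell (Pecam1). Among all genes tested with mLIF, 9.91% passed in either direction, 5.47% upward and 4.44% downward. These 1307 genes became 616 without PBS replicate 3, 502 without mLIF replicate 3, 827 without mLIF replicate 1 and 852 without mLIF replicate 2. The mLIF and PBS libraries did not overlap for 5 of the 6 genes, against 30.3% of all genes. With mOSM the same 3 genes rose and 0 fell, and 31.2% of all genes passed, 15.4% upward and 15.8% downward. The libraries did not overlap for 3 of the 6 genes, against 40.1% of all. With hlOSM these 3 rose and Vcam1 fell, where 37.9% of all genes passed, 18.2% upward and 19.8% downward, and 5 of the 6 did not overlap against 47.0% of all genes.

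Compared with mLIF, 4 of the 6 genes (Selp, Sele, Cd44 and Pecam1) were higher with mOSM and 0 were lower, where 11.8% of all genes passed, 6.05% upward and 5.76% downward. The same 4 were higher with hlOSM than with mLIF and 0 were lower, where 16.6% of all genes passed, 7.42% upward and 9.22% downward. In both comparisons 4 of the 6 genes did not overlap, against 27.1% and 31.7% of all genes. Between hlOSM and mOSM 0 of the 6 passed in limma, as 0.106% of all genes did, 0.00% upward and 0.106% downward. The libraries overlapped for all 6, against 9.74% of all genes without overlap. At an unadjusted p under 0.05 this comparison held 1 of the 6, Icam1, at -0.15 (95% interval -0.29 to -0.0013), where 987 of the 13184 genes tested did so. Differences among the 4 conditions by the overall F test passed for 4 of the 6, Selp, Sele, Cd44 and Pecam1, against 34.2% of all genes, and the limma adjusted p was 0.0543 for Vcam1 and 0.331 for Icam1.

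**Figure D2:**
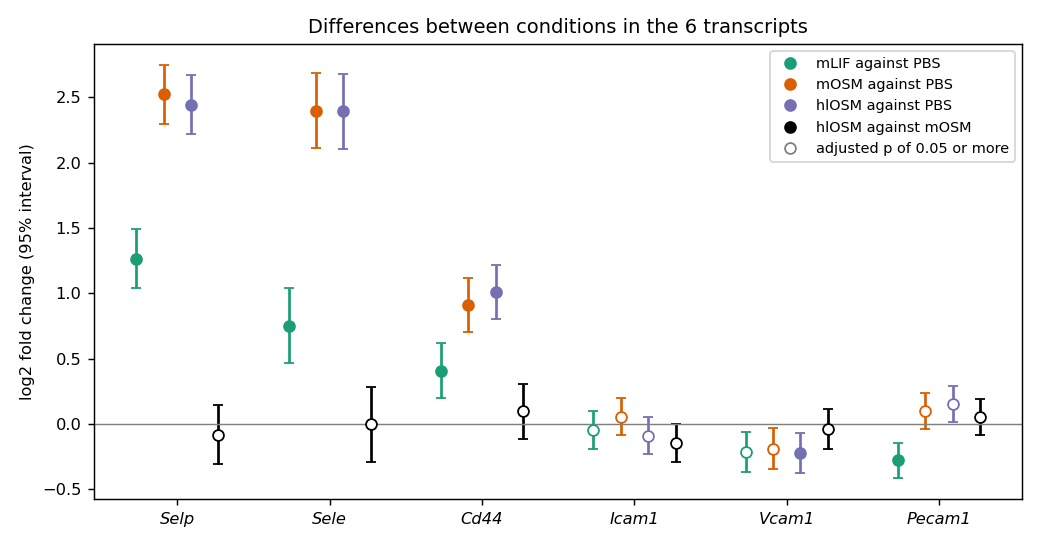
log2 fold change of the 6 adhesion transcripts (y axis) with its 95% interval from limma, for the cytokines against PBS and for the pair of OSM forms. Filled points have an adjusted p under 0.05 and open points do not. Selp, Sele and Cd44 stood above 0 with every cytokine, at 0.41 to 2.52, and no difference between hlOSM and mOSM was filled.

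Compared per length, as normalized count per kilobase of exonic sequence, the order of the 6 levels changed between conditions. In PBS it ran from Icam1 at 56.1 ± 1.53 (SD, n = 3) and Cd44 at 53.0 ± 9.21 (SD, n = 3), which lay within their spread of each other, over Pecam1 at 41.3 and Vcam1 at 27.3 to Sele at 10.9 ± 2.01 (SD, n = 3) and Selp at 8.01 ± 0.346 (SD, n = 3). With mLIF, Cd44 was highest at 69.9 per kilobase, followed by Icam1 at 54.4, Pecam1 at 34.0 and Vcam1 at 23.4. Selp at 19.6 and Sele at 18.4 per kilobase were then still lowest and within their spread of each other. With mOSM, Cd44 led at 99.0 per kilobase, and Icam1 at 58.5 and Sele at 58.4 were level. They were followed by Selp at 47.6 and Pecam1 at 44.3, also within their spread, and Vcam1 was lowest at 24.0 per kilobase. With hlOSM the levels per kilobase were 106 for Cd44, 58.4 for Sele, 52.8 for Icam1, 46.0 for Pecam1, 44.6 for Selp and 23.3 for Vcam1. Sele and Icam1, and Pecam1 and Selp, lay within their spread of each other. The 2 selectins stood lowest per length in PBS and with mLIF and at the levels of Icam1 and Pecam1 with both forms of OSM. The length joins the exons of all annotated transcripts, 8870 bases over 4 transcripts for Vcam1 and 2912 over 1 for Sele. Annotated exons that are not used in these cultures lower the value of a gene. The order between genes therefore depends on the annotation as well as on the RNA.

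RNA of endothelial marker genes was measured in all cultures. All 26 markers of an endothelial list, which contains none of the 6 genes, were above 0 in every library. The highest were Kdr and Flt1, the receptors of VEGF, Cdh5 (VE-cadherin), Eng (endoglin) and Ptprb (VE-PTP), and Cdh5 rose from a mean of 196 in PBS to 324 with hlOSM. The summed normalized count of the list was 2201 to 2339 in PBS, 2281 to 2371 with mLIF, 2722 to 3202 with mOSM and 2731 to 2984 with hlOSM. With mOSM and hlOSM every library lay above those of PBS, at log2 differences of 0.38 and 0.35, and with mLIF the ranges overlapped at 0.02. An exact two-sided permutation test of the sums gave p = 0.1 for mOSM and hlOSM, the smallest that 3 against 3 libraries can give, and p = 0.4 for mLIF. In bulk RNA a change in the number of endothelial cells and a change of RNA per cell cannot be told apart. The part of either in the rise of Selp, Sele and Cd44 was not tested.

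Single endothelial markers differed in how they moved. With mLIF 1 of the 26 rose, Aplnr (the apelin receptor), at 0.78 on the log2 scale, and 0 fell, with a median of 0.04 over the list. With mOSM 16 rose and 2 fell, with a median of 0.44, and with hlOSM 15 rose and 4 fell, with a median of 0.38. The median of all genes tested lay between -0.0052 and 0.00037 in these 3 comparisons. The risers with hlOSM were Aplnr, Sox18, Erg, Cdh5, Esam, Nos3, Plvap, Ecscr, Emcn, Flt1, Eng, Egfl7, Tie1, Tek and Kdr. Robo4 (0.53), Mmrn2 (0.33) and Vwf (0.44) passed with mOSM and not with hlOSM, and 0 of the 26 differed between the OSM forms in limma. Fabp4 (a fatty acid binding protein of capillary endothelium and fat cells) fell at -0.95 with mOSM and -1.17 with hlOSM, and Ptprb at -0.30 and -0.35. Clec14a fell at -0.77 and Cd34 at -0.19 with hlOSM. With hlOSM the 15 risers lay between 0.24 for Kdr and 2.32 for Aplnr, beside 2.44 for Selp, 2.39 for Sele and 1.01 for Cd44. With mLIF the rise of Selp, at 1.27, stood above the value of each of the 26 markers, and that of Sele, at 0.75, below those of Aplnr and Sox18 at 0.78 each.

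**Figure D3:**
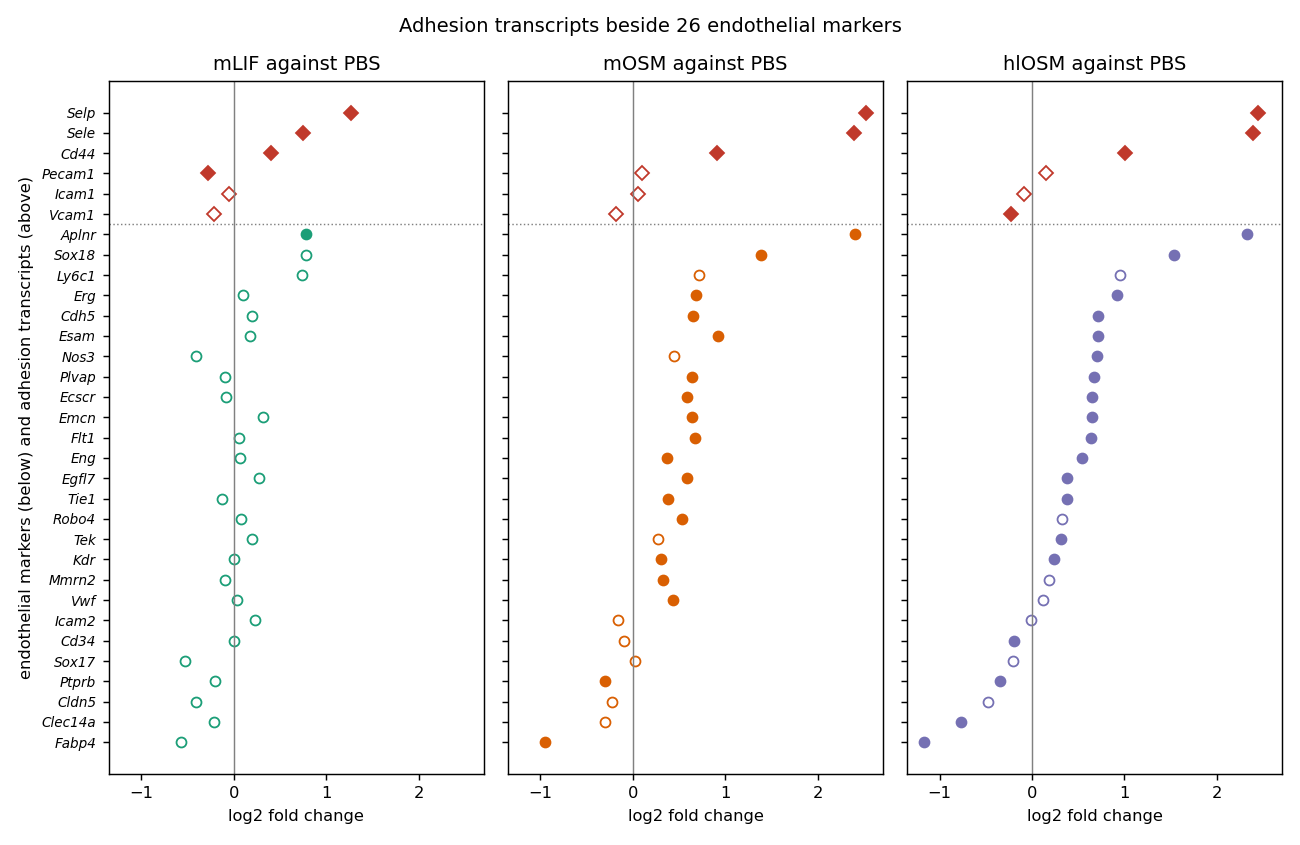
log2 fold change (x axis) of the 6 adhesion transcripts (diamonds, above the dotted line) and the 26 endothelial markers (circles, below it) for each cytokine against PBS. Filled symbols have a limma adjusted p under 0.05. With hlOSM 15 markers rose and 4 fell, and Aplnr, at 2.32, was the marker nearest to Selp and Sele, at 2.44 and 2.39.

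The 6 genes were also expressed as a share of the summed endothelial markers of the same library. Selp was 1.54% to 1.58% of that sum in PBS, 3.25% to 4.07% with mLIF, 6.59% to 7.87% with mOSM and 6.40% to 7.18% with hlOSM. The mean ratio was 2.40-fold, 4.52-fold and 4.37-fold that of PBS, and no cytokine library overlapped PBS. Sele was 1.14% to 1.54% in PBS and 2.06% to 2.63%, 5.18% to 6.06% and 5.38% to 6.57% with the cytokines in the same order, which is 1.68-fold, 4.15-fold and 4.23-fold the PBS ratio. For Cd44 the ratio was 1.31-fold, 1.45-fold and 1.58-fold that of PBS, again without overlap. Icam1 stood at 0.951, 0.800 and 0.738 of its PBS ratio, Vcam1 at 0.846, 0.674 and 0.671, and Pecam1 at 0.810, 0.824 and 0.874. Each of these 18 comparisons had an exact two-sided permutation p of 0.1, the smallest possible with 3 against 3 libraries, other than Icam1 with mLIF, whose libraries overlapped PBS (exact permutation p = 0.3). The marker sum itself lay above all PBS libraries with mOSM and hlOSM, at log2 differences of 0.38 and 0.35. A gene whose count did not change therefore has a lower share there, as with Icam1, whose counts overlapped PBS. The ratio was not computed for all genes, so these p-values do not set the 6 genes apart. The ratio of Pecam1, itself a widely used endothelial gene, was lower than in PBS in all 9 cytokine libraries, while its mean count was lower only with mLIF.

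**Figure D4:**
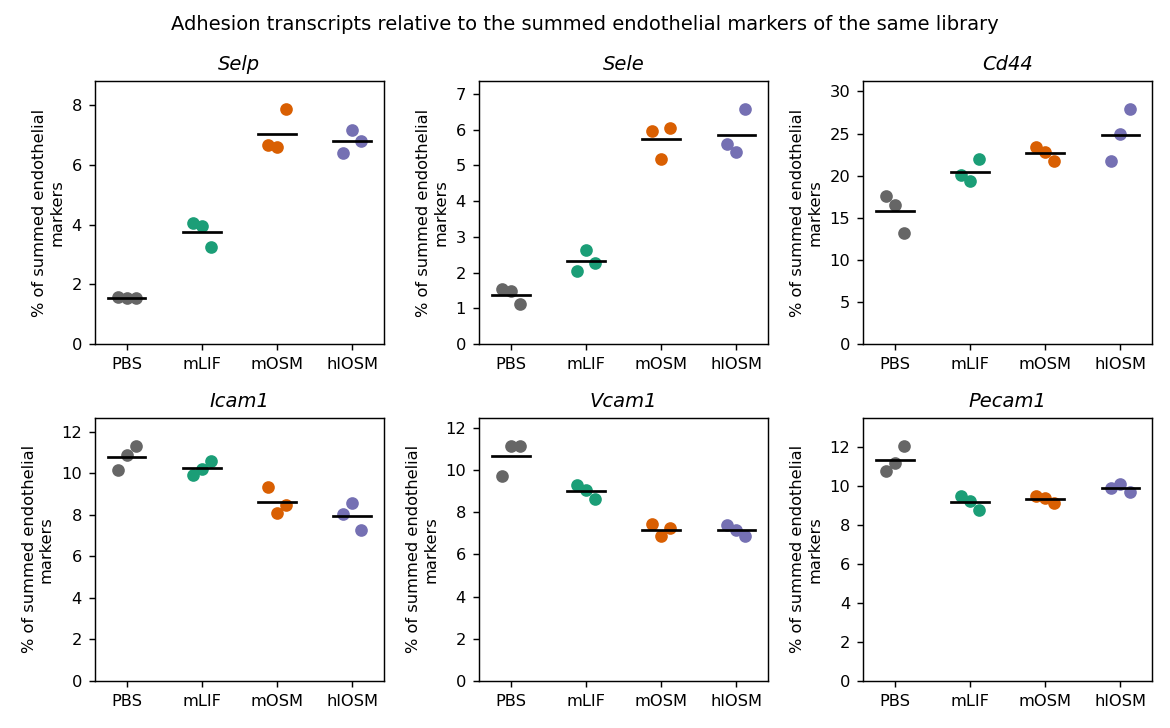
Each adhesion transcript as a percentage of the summed normalized counts of 26 endothelial markers of the same library (y axis, from 0), by condition (x axis). Points are libraries and bars the mean (n = 3). Selp lay at 1.54% to 1.58% in PBS and at 6.40% or more with mOSM and hlOSM, while the shares of Icam1, Vcam1 and Pecam1 with both forms of OSM lay below those of PBS. The marker sum was itself higher with both forms of OSM than in PBS.

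Markers of other cells moved in their own ways, and their part in the changes of the 6 genes was not tested. Beside the counts of all these marker lists, 9.91% of all genes tested passed with mLIF, 31.2% with mOSM and 37.9% with hlOSM. All 12 cardiomyocyte markers were above 0 in every library, Ttn the highest of them, and their sum went from between 53161 and 55448 in PBS to between 39336 and 42035 with hlOSM, with 7 of the 12 lowered and 0 raised. This sum was 46466 to 48938 with mLIF, where 6 fell, and 38527 to 43206 with mOSM, where 7 fell. Of 23 leukocyte markers, which matter because CD44 and PECAM-1 are also made by leukocytes, 17 had values and were above 0 in every library, with a sum of 454 to 498 in PBS, 441 to 498 with mLIF, 501 to 550 with mOSM and 467 to 553 with hlOSM. The mOSM libraries lay above all PBS libraries in this sum (exact two-sided permutation p = 0.1), and those of mLIF and hlOSM overlapped PBS. The highest was Lyz2. Of 11 tested, 1 rose and 0 fell with mLIF, 1 rose and 1 fell with mOSM, and 2 rose and 2 fell with hlOSM. Cd68 was among the risers with each cytokine, at 0.61, 1.22 and 1.28 on the log2 scale. The fallers with hlOSM were Lyz2 at -0.27 and Mrc1 at -0.36. Fcer1g, the other riser with hlOSM, stood at 3 to 7 in PBS and 9 to 24 with hlOSM. Itgam, the faller with mOSM, stood at 8 to 26 in PBS and 4 to 11 with mOSM. Both were near the filter value of 10, so that nothing is read from their tests. The remaining tested markers passed with no cytokine. The other 6 leukocyte markers were not analysed here. The sum of 6 platelet markers, led by Itga2b, was 50 to 70 in PBS, 46 to 56 with mLIF, 42 to 60 with mOSM and 48 to 67 with hlOSM, with none of 3 tested past the threshold in limma. A further 4 platelet markers were not analysed here.

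Fibroblast markers, led by Col3a1, summed to 2547 to 2813 in PBS, 2342 to 2477 with mLIF, 2639 to 3071 with mOSM and 2491 to 2719 with hlOSM. The mLIF libraries lay below all PBS libraries (exact two-sided permutation p = 0.1). Of 11 tested, 0 rose and 2 fell with mLIF, 3 rose and 5 fell with mOSM, and 4 rose and 7 fell with hlOSM. Mural markers, led by Cspg4, summed to 1106 to 1377 in PBS, 1037 to 1090 with mLIF, 817 to 877 with mOSM and 746 to 781 with hlOSM, so that every cytokine library lay below those of PBS. Of 9 tested, 0 passed with mLIF, 1 rose and 6 fell with mOSM, and 0 rose and 7 fell with hlOSM. Mesothelial markers, led by Wt1, summed to 11 to 31 in PBS, 21 to 42 with mLIF, 18 to 35 with mOSM and 12 to 26 with hlOSM, and all 7 were under the filter.

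Among 23 tested genes of other endothelial adhesion and junction molecules, 2 rose and 0 fell with mLIF, 11 rose and 2 fell with mOSM, and 9 rose and 5 fell with hlOSM. The list medians were 0.04, 0.24 and 0.19 on the log2 scale. Of all genes tested, 9.91% passed with mLIF, 31.2% with mOSM and 37.9% with hlOSM, in near equal parts upward and downward. These shares also stand beside the counts of the lists that follow. Pvr, the poliovirus receptor homolog that binds DNAM-1 on lymphocytes, rose with each cytokine, at 0.36, 0.69 and 0.74. Bcam, a laminin receptor, did so at 0.30, 0.28 and 0.27. Stab1, a scavenger receptor of sinusoidal endothelium and macrophages, rose at 0.78 with mOSM and 0.72 with hlOSM. With hlOSM, the tetraspanin Cd9 fell at -0.65. Thy1, which binds leukocyte integrins, and Aoc3 (vascular adhesion protein 1) are also among the 5 counted as lowered with hlOSM. Both were low, with normalized counts of 12 to 16 and 13 to 16 in PBS against 7 to 8 and 8 to 9 with hlOSM. No hlOSM library of either gene reached the filter value of 10, so that nothing is read from their tests. Of the endothelial marker list, 6 genes also stand in this one (Cd34, Cdh5, Emcn, Esam, Icam2 and Vwf).

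The partners that bind these molecules moved in both directions, as the genes tested did as a whole. Of 10 tested counter-receptors and selectin ligands, 2 rose and 2 fell with mLIF, 2 rose and 3 fell with mOSM, and 3 rose and 3 fell with hlOSM, with medians of 0.05, -0.15 and -0.07. Cd24a, a ligand of P-selectin, rose at 1.15 with mLIF, 1.68 with mOSM and 1.86 with hlOSM, from a mean of 77.0 ± 24.8 (SD, n = 3) in PBS to 277 ± 65.6 (SD, n = 3) with hlOSM. Itga9, an integrin chain that binds VCAM-1, rose at 0.21, 0.53 and 0.51. With hlOSM the integrin chain Itgb1 rose at 0.20. Glg1, a ligand of E-selectin, fell at -0.20, -0.28 and -0.35. Itgb3 fell at -0.35 with mLIF and -0.33 with hlOSM, and Itgav fell at -0.22 with hlOSM. The PSGL-1 gene Selplg, the main ligand of P-selectin on leukocytes, and Itgal, the LFA-1 chain that binds ICAM-1, were under the filter. The 4 calls of this list with mLIF became 1 without PBS replicate 3 or mLIF replicate 3, and 2 without PBS replicate 2, mLIF replicate 1 or mLIF replicate 2.

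Enzymes that build selectin ligands moved in both directions, as the genes tested did as a whole. Of 12 tested, 1 rose and 0 fell with mLIF, 4 rose and 3 fell with mOSM, and 4 rose and 4 fell with hlOSM, with medians of -0.03, -0.09 and -0.03. St3gal1, a sialyltransferase, rose at 0.39, 0.56 and 0.59 with mLIF, mOSM and hlOSM. St3gal4, a sialyltransferase of selectin ligands, rose at 0.53 with mOSM and 0.80 with hlOSM. B3gnt3, which extends sugar chains, is among the 4 counted as raised with either form of OSM. It had normalized counts of 7 to 11 in PBS, 7 to 8 with mLIF, 17 to 25 with mOSM and 24 to 33 with hlOSM, and it passed the filter only through the libraries of the OSM forms, so that nothing is read from its test. The branching enzyme Gcnt1 fell at -1.13 with mOSM and -1.54 with hlOSM, St3gal6 fell at -0.40 and -0.45, and St3gal3 at -0.38 with hlOSM.

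The list of hyaluronan and other CD44 ligands, with its enzymes, had 11 genes tested. Of these 1 rose and 2 fell with mLIF, 6 rose and 1 fell with mOSM, and 5 rose and 1 fell with hlOSM, with medians of 0.12, 0.38 and 0.25. Has2, a hyaluronan synthase, rose at 2.02 with mOSM and 2.24 with hlOSM, from a mean of 13.3 ± 5.69 (SD, n = 3) in PBS to 63.7 ± 15.0 (SD, n = 3) with hlOSM. Spp1 (osteopontin), a CD44 ligand, rose at 1.80 and 1.76, and Tnfaip6, which links proteins to hyaluronan, at 1.57 and 1.66. Cemip2, a membrane protein linked to hyaluronan turnover, rose with each cytokine, at 0.33, 0.85 and 0.82. Hmmr, a hyaluronan-binding protein of dividing cells, fell at -0.43 with mLIF and -0.44 with hlOSM, and Fn1 (fibronectin) at -0.24 with mLIF. The 3 calls of this list with mLIF became 0 without PBS replicate 3 or without mLIF replicate 3, and 1 without mLIF replicate 1.

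Of 11 tested linkers and sheddases, proteins that tie adhesion molecules to actin or release them from the surface, 0 passed with mLIF, 4 rose and 2 fell with mOSM, and 4 rose and 1 fell with hlOSM, with medians of -0.01, 0.01 and -0.04. Ezr (ezrin), which binds the tail of CD44, rose at 0.62 with mOSM and 0.79 with hlOSM. Msn (moesin) rose at 0.24 and 0.26, and Vcl (vinculin) at 0.18 and 0.26. Actn1, an actinin that binds the tail of ICAM-1, fell at -0.29 and -0.27. Without PBS replicate 2 this list had 1 call with mLIF, and without PBS replicate 3 its 6 calls with mOSM became 3.

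Receptors of cytokines that are known to induce adhesion molecules formed the last list. Of 13 tested, 4 rose and 0 fell with mLIF, 7 rose and 1 fell with mOSM, and 7 rose and 2 fell with hlOSM, with medians of 0.06, 0.19 and 0.21. Il4ra, a chain of the IL-4 and IL-13 receptors, rose at 0.44, 1.73 and 1.78, from a mean of 157 ± 11.6 (SD, n = 3) in PBS to 541 ± 5.29 (SD, n = 3) with hlOSM. Il1r1, the IL-1 receptor, rose at 0.34, 1.38 and 1.30, Osmr, the receptor of OSM, at 0.60, 0.96 and 1.07, and the TNF receptor Tnfrsf1a at 0.42, 0.67 and 0.61. Il6ra, the IL-6 receptor, fell from a mean of 25.3 in PBS to 15.3 with mOSM and 12.3 with hlOSM, and Ifngr1, the interferon gamma receptor, at -0.24 with hlOSM. Selp, Sele, Spp1, Cd24a, Osmr, Il1r1 and Il4ra also stand in the study's own display of regulated genes of these samples, so that their direction is not independent evidence.

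**Figure D5:**
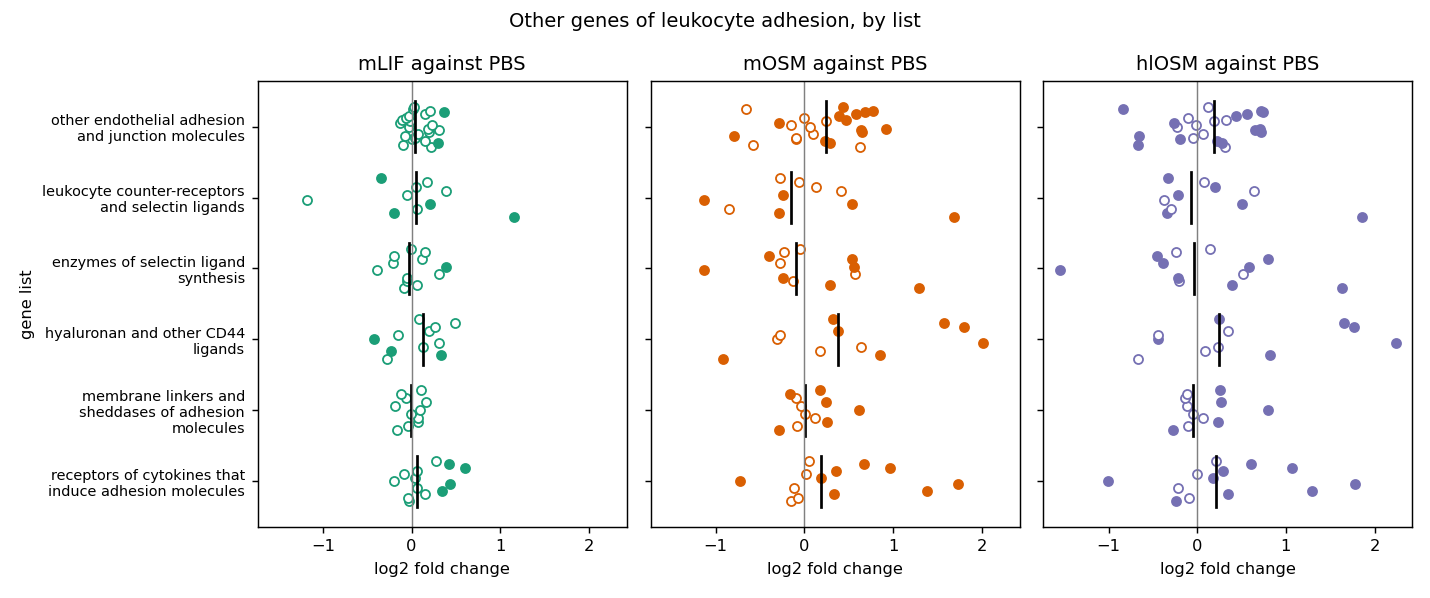
log2 fold change against PBS (x axis) of the tested genes of 6 lists related to leukocyte adhesion (y axis), for each cytokine. Each point is a gene, filled where the limma adjusted p is under 0.05, points are spread vertically only for legibility, and black bars are list medians. With hlOSM the points ran from Gcnt1 at -1.54 to Has2 at 2.24.

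Over the 12 libraries, the log2 values of Selp and Sele had a Pearson correlation of 0.969, those of Sele and Cd44 of 0.960 and those of Selp and Cd44 of 0.935. These correlations describe libraries of 4 conditions, which share treatment and normalization. The genes of the table whose pattern was most like that of Selp were Socs3, a feedback inhibitor of cytokine signaling (0.987), Lgmn (0.983) and Tirap (0.982). For Sele they were Gda (0.997), Cpxm1 (0.996) and Pros1, which encodes the anticoagulant protein S (0.995). The nearest to Cd44 were Runx1, a transcription factor (0.993), Angptl4 (0.991) and Smim3 (0.991). Likeness was lower for Icam1, Vcam1 and Pecam1. Cul7 (0.925), Poll (0.925) and Stub1 (0.906) were nearest to Icam1, and Sh3bp5 (0.971), Pcolce2 (0.937) and Pawr (0.930) to Vcam1. Rsbn1 (0.932), Mex3b (0.930) and Nacc1 (0.909) were nearest to Pecam1.

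As facts of the whole series, normalized counts of a library summed to 2745748 to 2911891, which is not a number of reads. The study gives only an average number of reads over its libraries, so the depth of a single library is unknown and no counting error is given. The median log2 fold change of all genes lay between -0.0067 and 0.00037 in the 6 comparisons.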

How the data were processed

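Total RNA of 12 cardiomyocyte cultures, 3 for each of PBS, mLIF, mOSM and hlOSM, was sequenced by the authors with a stranded kit. The submitters' processing notes name FastQC, STAR 2.7.7a, featureCounts 1.6.5 of the Subread package and mm10. The deposited values are scores, namely normalized counts, not divided by gene length, that the authors rounded. The normalization and the strand setting are not given in the sources used here, so no model of read counts was used. The study gives an average number of reads over libraries, and the depth of single libraries is unknown. The sample titles gave the conditions and replicate numbers.

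Log2(normalized count + 1) was fitted with limma 3.58.1 in R 4.3.3 (lmFit, eBayes with a trend), with the 4 conditions in a single fit over 13184 genes with a value of 10 or more in 3 or more libraries. Calls were made at 0.05 after Benjamini-Hochberg adjustment of two-sided p-values over all of these genes, and this adjusted p is meant throughout. The script was tested on simulated data. Ratios to the endothelial markers were compared by exact permutation in Python 3.11.15 with SciPy 1.17.1. Exonic lengths were the union of exons in GENCODE vM21, whose gene coordinates equal those of the table for all 6 genes. RefSeq promoter windows were searched for letters of the motifs.

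The 6 genes and the lists of adhesion genes and cell type markers were chosen with earlier results of these data known. Genes were named by a rule. It takes the 6 genes and, of each list, up to 3 raised and 3 lowered with hlOSM and those past the threshold with mLIF. It also takes the endothelial markers that are highest or passed, the highest of each other marker list, and the 3 genes most alike each of the 6. Cd68 was named outside this rule, for its rise with each cytokine, and Mrc1, Fcer1g and Itgam as the other leukocyte markers past the threshold. Results were recomputed with a pseudocount of 0.1 or 5, without the filter or with one at 50, 2 rescalings, a fit of the 6 libraries compared, a replicate block, each library left out, and 5 endothelial markers in place of 26.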

Additional observations from a re-analysis of the deposited data

How the results depend on the processing

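Of the 20 alternatives, none turned or ended the rise of Selp or Sele with any cytokine, or that of Cd44 with mOSM or hlOSM. With only the 6 libraries compared, 2 of the 6 genes fell with mLIF, the second being Vcam1 at -0.22 (limma adjusted p = 0.0381). With quantile normalization 1 fell with mOSM, Vcam1 at -0.21 (limma adjusted p = 0.0254). With trimmed-mean rescaling Pecam1 rose with hlOSM at 0.16 (limma adjusted p = 0.041). With each library left out in turn, the genes that fell numbered 0 to 2 with mLIF, 0 to 1 with mOSM and 0 to 1 with hlOSM. The log2 fold changes that crossed the threshold then ranged from 0.26 to 0.51 for Cd44 with mLIF, -0.30 to -0.26 for Pecam1 with mLIF and 0.13 to 0.18 for Pecam1 with hlOSM. For Vcam1 they ranged from -0.26 to -0.18 with mLIF, -0.25 to -0.15 with mOSM and -0.27 to -0.19 with hlOSM. Small differences that turned sign, none past the threshold, were those of Vcam1 from mLIF to mOSM (-0.035 to 0.065), of Vcam1 (-0.053 to 0.03) and Icam1 (-0.071 to 0.0012) from mLIF to hlOSM, and from mOSM to hlOSM those of Selp (-0.18 to 0.058), Sele (-0.11 to 0.10, and 0.0071 with quantile normalization), Vcam1 (-0.082 to 0.026) and Cd44 (-0.011 to 0.17). The cause was not tested.

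Same-numbered libraries of different conditions deviated in opposite directions, with correlations of -0.406 to -0.151 over 18 pairs. The replicate means had a median SD of 0.0254 against 0.131 within conditions. Removal of a difference between replicate numbers would also leave such values, so they do not show that the libraries were unpaired. The deposited values may already have had the difference between replicate numbers taken out, which the sources used here do not state. In that case the p-values of the main fit, which has no replicate block, are too small. With the replicate block no call of the 6 genes changed (Pecam1 with mLIF, limma adjusted p = 0.0304, and Vcam1 with hlOSM, 0.0459). All genes past the threshold with mLIF went from 1307 to 784 with the block, and those between hlOSM and mOSM from 14 to 2. The latter were 0 with only the 6 libraries compared, 6 without the filter, 8 with trimmed-mean rescaling and 1 to 17 with a library left out. In the block the calls with mLIF went from 4 to 2 for counter-receptors and from 3 to 1 for CD44 ligands, and the lowered calls of the other endothelial adhesion genes with hlOSM from 5 to 2. Calls of named genes that ended in the block were, with mLIF, those of Itga9 (limma adjusted p = 0.0879), Itgb3 (0.113), Hmmr (0.0526) and Fn1 (0.0558), with mOSM those of Il6ra (0.0683) and Itgam (0.0622), and with hlOSM those of Cd34 (0.104), Thy1 (0.0683), Aoc3 (0.107), Itgb3 (0.0543), Ifngr1 (0.0634), Tek (0.0647) and Mrc1 (0.0988). With 5 endothelial markers the log2 ratio with hlOSM was 2.04 for Selp (2.13 with 26) and -0.28 for Pecam1 (-0.19 with 26). Leaving out each library in turn, an alternative chosen for the ratios after the data were seen, moved no ratio by more than 1 SD between replicates. With 3 libraries a group and unknown depth, differences of the size seen for Vcam1, for Pecam1 and for Cd44 with mLIF depended on single libraries.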

Other observations

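The neighbors of the selectins were looked at after the values of Selp and Sele had been seen. Sele and Selp lie 57586 bases apart on chromosome 1 of mm10. The next protein-coding gene after Selp is F5, coagulation factor V. It stood at 0 to 1 in PBS, 1 to 3 with mLIF, 24 to 51 with mOSM and 32 to 52 with hlOSM. It passed the filter through the libraries of mOSM and hlOSM, so that no test is given. On the other side of Sele, Mettl18 was at 15 to 19 in PBS and 23 to 26 with hlOSM, BC055324 at 15 to 17 and 16 to 23, Scyl3 at 144 to 154 in PBS and 170 to 199 with hlOSM, and Kifap3 at 201 to 212 and 192 to 231. Beyond F5, Slc19a2 had 202 to 205 in PBS and 180 to 209 with hlOSM, Ccdc181 102 to 117 and 96 to 108, Blzf1 215 to 224 and 240 to 254, and Nme7 29 to 32 and 33 to 43. Gm16548, a noncoding gene of the opposite strand that overlaps the end of Selp, had 0 to 1 in PBS, 3 to 7 with mLIF, 1 to 5 with mOSM and 3 to 9 with hlOSM.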
